A study of Homo sapiens with 24 samples.

Results

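The genes described here are the 77 transcripts of the table, among 9822 genes measured, that were at least 2-fold lower with the kinase degrader SK-3-91 than with its solvent at 1, 4 and 8 h and whose symbols do not begin with ZNF, ZBTB, ZSCAN, ZC3H, ZSWIM, SLC, DUSP or RNF. MYC, ID3, CISH, PIM1, EGR1 and PARS2 were left out by name as well. The selection used L, the log2 ratio of the mean CPM (counts scaled to 1000000 per library) of the 4 SK-3-91 libraries over that of the 4 DMSO libraries of the same time, with 0.5 CPM added to each mean, minus the median of that ratio over all genes. A gene entered where L was at or under -1 at each of the 3 times. Without the exclusions by symbol the condition held for 140 genes (1.43% of all), and 63 of those were left out, 50 of them with symbols that start with ZNF. The working name of the set says that its genes encode no zinc-finger proteins, and the data do not bear that out: ZKSCAN2, ZKSCAN4, ZIK1, ZFP28, GFI1, BCL6 and ZBED8, 7 of the 77, encode proteins with zinc fingers of the classical or BED type. NR1D1, TRIM32, USP51 and PLEKHF1, whose proteins have zinc-binding domains of other kinds, are not counted among these 7. The genes are therefore called here the 77 genes lowered at all times.

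The study measured RNA in MOLT4 cells, a line grown from human T-cell leukaemia of the acute lymphoblastic type, in 24 libraries that fall into 6 groups of 4. The groups were SK-3-91 for 1 h, SK-3-91 for 4 h, SK-3-91 for 8 h, DMSO for 1 h, DMSO for 4 h and DMSO for 8 h. SK-3-91 is described by the submitters as a degrader of kinases in general, and degraders lead a cell's ubiquitin system to break down the proteins they bind. The dose is not given in the sources at hand, and all cells grew in the same serum-supplemented medium. MOLT4 is a single line without a host or a stroma, so the values describe that line only. No label names separate cultures behind the replicates, so the p-values below measure only the spread between these libraries, and the spread between libraries may be technical.

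The level of a messenger RNA is set by how fast it is made and how fast it is broken down. Messages of many transcription factors and signalling regulators are known to turn over quickly in blood cells, while messages of housekeeping enzymes and structural proteins often last for many hours. Neither synthesis nor decay was measured in these libraries, which hold total RNA levels relative to the other genes of the same library. Because each library was counted on its own scale, less RNA per cell and fewer cells cannot be told apart from these values.

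Libraries held between 6.86 and 14.6 megareads counted. They averaged 13.6, 10.8 and 8.30 megareads in SK-3-91 libraries at 1, 4 and 8 h, against 14.1, 14.4 and 14.2 megareads in DMSO libraries. The median gene had uncentred log2 ratios of -0.01, -0.34 and -0.53 at 1, 4 and 8 h, and L is given relative to it. Of 25 T-lineage markers, 23 were measured and none was at 0 in a group, while 1 of 8 B-cell markers (CD79A), 1 of 8 fibroblast or endothelial markers (PECAM1), 0 of 9 myeloid, 0 of 9 erythroid and 0 of 5 epithelial markers were in the table. The summed T-lineage level was 8403 to 8619 CPM in SK-3-91 libraries and 7780 to 7891 CPM in DMSO libraries at 1 h, 7270 to 7654 CPM in SK-3-91 libraries and 8269 to 8424 CPM in DMSO libraries at 4 h, and 5625 to 6213 CPM in SK-3-91 libraries and 8846 to 9292 CPM in DMSO libraries at 8 h. At 8 h CD79A was 19.0 to 24.4 CPM in SK-3-91 and 6.89 to 11.3 CPM in DMSO libraries, and PECAM1 was 12.7 to 16.5 CPM in SK-3-91 and 46.3 to 47.2 CPM in DMSO libraries. The part of these shifts in the values of the 77 genes was not tested.

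Promoter sequences from RefSeq (assembly GRCh38.p14, 250 bases before to 50 bases after the start) could be matched for 58 of the 77 genes and for 8103 genes measured. The 4 shown here belong to genes whose values recur below, and a single searched motif is marked in each: a TATA element, a CCAAT box or an E-box. Capitals mark that motif only, on either strand, and the sequences run 5′ to 3′ along the strand of the gene. The MEPCE and BHLHE40 promoters also match the searched motif GGGCGG, which is left in lower case. EOMES is at chr3:27722274-27722573 on the minus strand, with TATAAA read on the opposite strand, its first base at position -31. TRIM32 is at chr9:116687055-116687354 on the plus strand, with CCAAT read on the opposite strand, at position -20. MEPCE is at chr7:100428540-100428839 on the plus strand, with CCAAT read on the opposite strand, at position -92. BHLHE40 is at chr3:4979187-4979486 on the plus strand, with CACGTG at position -245.
EOMES: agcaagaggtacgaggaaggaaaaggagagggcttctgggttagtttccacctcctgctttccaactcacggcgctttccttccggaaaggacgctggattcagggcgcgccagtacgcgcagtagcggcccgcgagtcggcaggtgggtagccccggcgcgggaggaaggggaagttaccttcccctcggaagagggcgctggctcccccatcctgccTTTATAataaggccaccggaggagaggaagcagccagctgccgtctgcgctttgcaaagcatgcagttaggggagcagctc
TRIM32: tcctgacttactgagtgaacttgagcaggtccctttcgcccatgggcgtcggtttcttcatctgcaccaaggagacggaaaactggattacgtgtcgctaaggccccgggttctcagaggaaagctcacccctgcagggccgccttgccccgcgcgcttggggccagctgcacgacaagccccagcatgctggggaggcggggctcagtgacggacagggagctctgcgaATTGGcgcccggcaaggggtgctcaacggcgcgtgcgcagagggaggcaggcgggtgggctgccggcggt
MEPCE: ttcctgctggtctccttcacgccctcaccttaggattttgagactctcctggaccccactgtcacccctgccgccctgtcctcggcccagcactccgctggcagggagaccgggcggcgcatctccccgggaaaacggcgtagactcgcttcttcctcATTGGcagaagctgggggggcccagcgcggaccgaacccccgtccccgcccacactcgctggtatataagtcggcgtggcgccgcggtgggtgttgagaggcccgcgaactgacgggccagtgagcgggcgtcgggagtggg
BHLHE40: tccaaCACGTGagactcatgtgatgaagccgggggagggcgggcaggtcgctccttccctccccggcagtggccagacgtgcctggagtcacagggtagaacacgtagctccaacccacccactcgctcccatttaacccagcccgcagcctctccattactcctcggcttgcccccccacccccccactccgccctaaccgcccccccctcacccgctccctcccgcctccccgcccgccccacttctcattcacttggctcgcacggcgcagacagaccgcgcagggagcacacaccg
The EOMES promoter holds its TATA element about where such elements usually sit, shortly before the start. In the TRIM32 and MEPCE promoters the CCAAT box stands before the start, and in the BHLHE40 promoter the E-box, a site read by helix-loop-helix proteins such as BHLHE40 itself, lies near the upstream end of the window. The motifs are not exclusive: the MEPCE promoter also holds TATATAA nearer to its start, which the searched TATAAA does not match. A match is a description of letters and not a bound site.

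The median of L over the 77 genes at 1, 4 and 8 h was -1.27, -2.30 and -1.89. These values chose the genes and carry no test. At 1 h these values of L reached up to -1.0002, at 4 h they ran between -3.64 and -1.12, and at 8 h between -3.49 and -1.03. As plain CPM, the SK-3-91 mean of the median gene of the set was 39.6% of the DMSO mean at 1 h, 14.3% at 4 h (2.70% to 32.7%) and 14.8% at 8 h (2.20% to 33.8%). The median standard error of L, from the spread of the 4 libraries in each group, was 0.082, 0.10 and 0.13 at the 3 times. A 4-fold decrease (L at or under -2) was passed by 0 of the 77 genes at 1 h, 50 at 4 h and 35 at 8 h, beside 8, 388 and 534 of all 9822 genes.

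In each of the 77 genes and at each time, all 4 SK-3-91 libraries lay below all 4 DMSO libraries. The same separation held for 30.3% of all genes at 1 h, 56.3% at 4 h and 59.6% at 8 h, and nothing is read from the count of the 77 since the selection used the same values. An L at or under -1 was found in 3.01% of all genes at 1 h, 16.4% at 4 h and 20.3% at 8 h. An L at or above 1 was found in 0.0509%, 9.78% and 19.1% of all genes at these times. The 1 h condition was thus the narrow one, and 186 genes with admitted symbols passed it, of which 109 failed at 4 or 8 h.

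**Figure D1:**
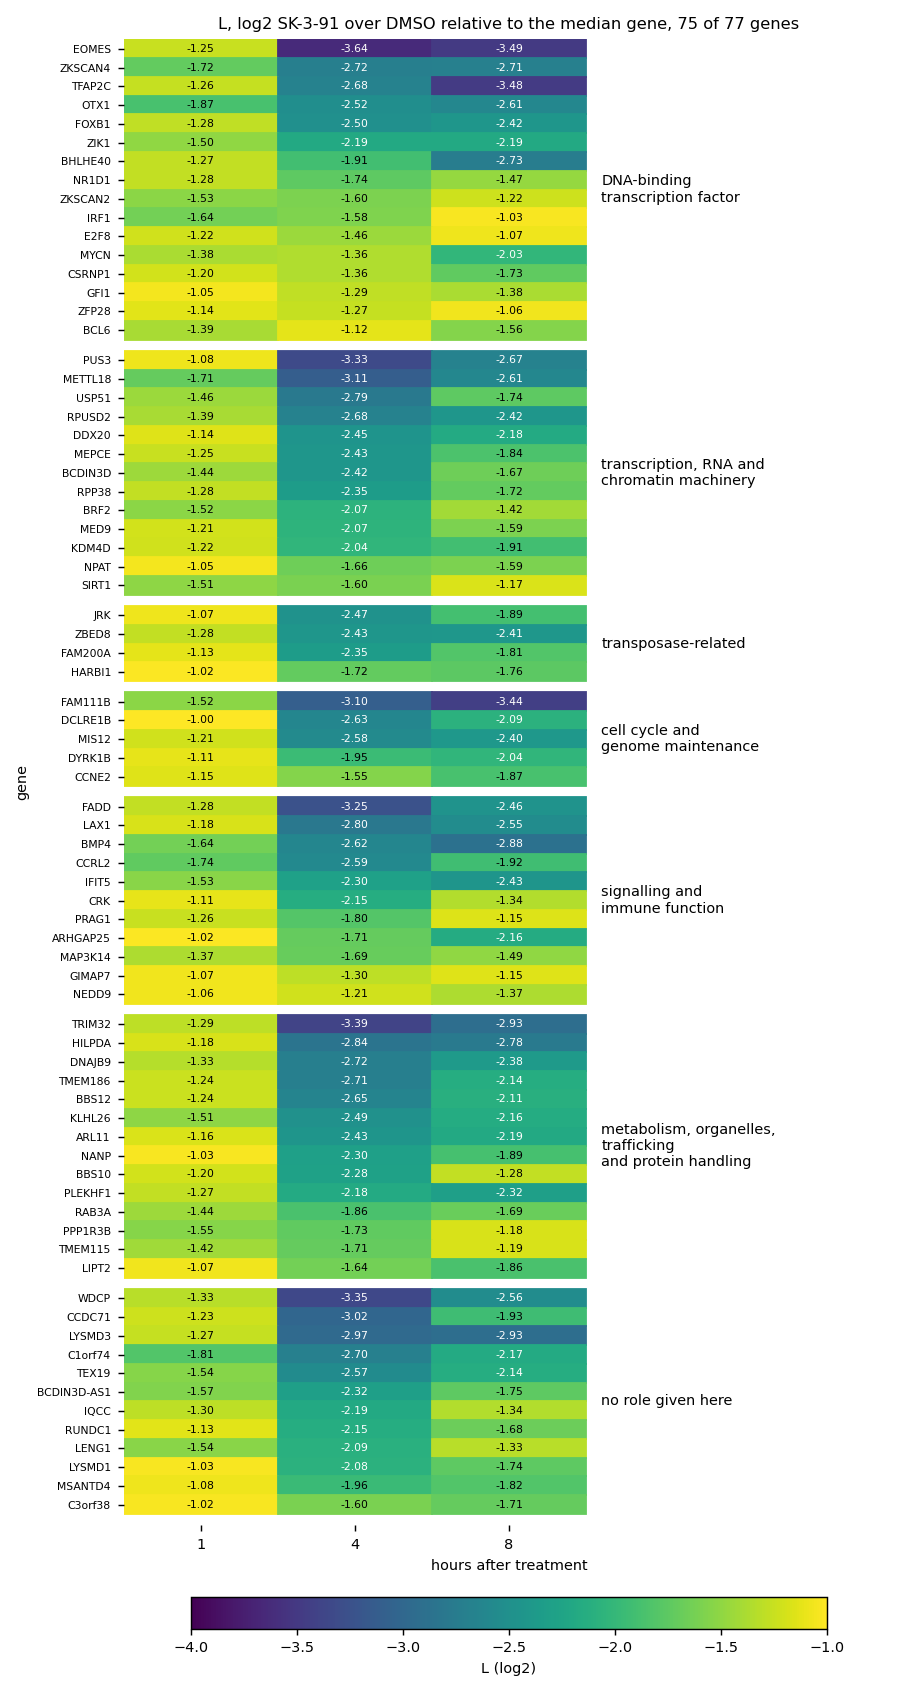
Values of L (log2, relative to the median gene) for 75 of the 77 genes at 1, 4 and 8 h, grouped by the role of the encoded protein and ordered by L at 4 h within each group. Dark cells are low; EOMES has the lowest value, -3.64 at 4 h, and the 1 h column reaches up to -1.0002 in DCLRE1B.

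The DMSO level of the genes was modest. Over the set, the median of the mean DMSO CPM was 28.6, against 51.6 over all genes, and it ran from 4.44 to 233 CPM. A mean of 50 CPM or more was found for 20 genes and a mean of at least 5 CPM at each time for 70. For 22 genes the lowest library held under 10 reads, and the lowest count was 0, so for these the size of L depends on the 0.5 CPM added.

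DNA-binding transcription factors were the largest role group, with 17 genes. Their median L was -1.28, -1.74 and -2.03 at 1, 4 and 8 h, and 8 of the 17 were lowest at 8 h. The roles were assigned by hand from general knowledge after the symbols had been seen and carry no test. EOMES encodes a T-box factor of effector and memory T cells and of natural killer cells.

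At 1 h EOMES had 4.64, 5.94, 6.897 and 6.69 CPM in the 4 SK-3-91 libraries, against 14.9, 15.8, 14.4 and 15.8 CPM in the 4 DMSO libraries. At 4 h EOMES had 0.185, 0.556, 0.564 and 0.09200 CPM in the 4 SK-3-91 libraries, against 14.7, 12.1, 12.5 and 12.4 CPM in the 4 DMSO libraries. At 8 h EOMES had 0.112, 0.223, 0.583 and 0.118 CPM in the 4 SK-3-91 libraries, against 11.8, 11.4, 11.7 and 12.2 CPM in the 4 DMSO libraries. EOMES was thus nearly absent from SK-3-91 libraries from 4 h on, at 0.0920 to 0.564 CPM at 4 h, while the DMSO libraries kept a level many times higher. Its L at 1, 4 and 8 h was -1.25 ± 0.12, -3.64 ± 0.23 and -3.49 ± 0.19 (SE, n = 4 per group, as for every L below). No other gene of the set had a lower value at 4 or at 8 h.

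TFAP2C encodes AP-2 gamma, a factor of trophoblast and epithelial development. At 1 h TFAP2C had 26.4, 28.4, 28.1 and 26.99 CPM in the 4 SK-3-91 libraries, against 63.6, 67.9, 70.3 and 67.1 CPM in the 4 DMSO libraries. At 4 h TFAP2C had 3.97, 5.29, 4.98 and 4.88 CPM in the 4 SK-3-91 libraries, against 41.1, 42.9, 42.4 and 42.7 CPM in the 4 DMSO libraries. At 8 h TFAP2C had 1.798, 2.901, 2.04 and 2.24 CPM in the 4 SK-3-91 libraries, against 45.6, 43.8, 42.2 and 42.6 CPM in the 4 DMSO libraries. Levels in SK-3-91 libraries were lower at each later time and the groups lay apart throughout. L at 1, 4 and 8 h was -1.26 ± 0.038, -2.68 ± 0.082 and -3.48 ± 0.12, a change with time that only EOMES exceeded.

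BHLHE40 encodes a helix-loop-helix repressor of the circadian clock and of immune cells that is induced by many stimuli. At 1 h BHLHE40 had 7.22, 7.91, 7.704 and 8.46 CPM in the 4 SK-3-91 libraries, against 20.3, 20.1, 19.2 and 19.5 CPM in the 4 DMSO libraries. At 4 h BHLHE40 had 12.8, 11.2, 11.6 and 14.1 CPM in the 4 SK-3-91 libraries, against 52.8, 61.99, 65.6 and 64.04 CPM in the 4 DMSO libraries. At 8 h BHLHE40 had 8.88, 13.3, 14.7 and 20.6 CPM in the 4 SK-3-91 libraries, against 135, 127, 161 and 147 CPM in the 4 DMSO libraries. Both groups were higher at later times, but the DMSO libraries far more so, and the libraries never overlapped. L was -1.27 ± 0.048, -1.91 ± 0.10 and -2.73 ± 0.25 at 1, 4 and 8 h. The deepening of L in BHLHE40 stands beside higher DMSO levels at the later times, not beside lower SK-3-91 levels.

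IRF1, a factor of the interferon response, was the one gene of the set whose lowest L came at 1 h. That depends on the centring, since without subtraction of the median gene IRF1 too was lower at 4 h than at 1 h. Its SK-3-91 mean was 31.5%, 26.2% and 33.8% of the DMSO mean at 1, 4 and 8 h. At 1 h IRF1 had 37.9, 40.2, 41.3 and 38.5 CPM in the 4 SK-3-91 libraries, against 136, 121, 118 and 127 CPM in the 4 DMSO libraries. At 4 h IRF1 had 36.3, 40.1, 41.4 and 44.3 CPM in the 4 SK-3-91 libraries, against 149, 153, 155 and 162 CPM in the 4 DMSO libraries. At 8 h IRF1 had 48.9, 52.3, 45.9 and 54.6 CPM in the 4 SK-3-91 libraries, against 151, 149.9, 146 and 150.4 CPM in the 4 DMSO libraries. Its SK-3-91 level was nearly the same at 1 and 4 h and somewhat higher at 8 h, below every DMSO library. L at 1, 4 and 8 h was -1.64 ± 0.053, -1.58 ± 0.065 and -1.03 ± 0.056. IRF1 shares 26.0% of its 32-base words with other genes, most with a neighbour on the opposite strand, and its counts are uncertain to that extent.

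Here and below, the ± after a mean in CPM is the standard deviation of the 4 libraries of a group, while the ± after L is the standard error. MYCN, a member of the MYC family, averaged 5.25 ± 0.619 CPM in SK-3-91 libraries and 14.6 ± 0.893 CPM in DMSO libraries at 1 h and 2.63 ± 0.867 CPM in SK-3-91 libraries and 9.68 ± 1.005 CPM in DMSO libraries at 4 h. At 8 h it averaged 0.881 ± 0.407 CPM in SK-3-91 libraries and 7.62 ± 1.06 CPM in DMSO libraries, with L at -2.03 ± 0.22. The SK-3-91 level of MYCN at 8 h was under 1 CPM in the mean, and L moved from -1.38 ± 0.088 at 1 h over -1.36 ± 0.21 at 4 h. OTX1, a homeobox factor of brain development, had one of the lowest values of L at 1 h, -1.87 ± 0.086, with means of 5.14 ± 0.5796 CPM in SK-3-91 libraries and 20.3 ± 1.33 CPM in DMSO libraries. It was lower still at 4 h, L -2.52 ± 0.20, and at 8 h, -2.61 ± 0.21.

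The zinc-finger repressors GFI1 and BCL6, which steer blood cell and lymphocyte development, were among the least lowered at 4 h, though not BCL6 at 1 h, when its L of -1.39 ± 0.18 was below the median of the set. GFI1 averaged 24.8 ± 1.83 CPM in SK-3-91 libraries and 77.7 ± 3.56 CPM in DMSO libraries at 4 h, an L of -1.29 ± 0.063, and BCL6 averaged 2.57 ± 0.722 CPM in SK-3-91 libraries and 7.98 ± 0.719 CPM in DMSO libraries, an L of -1.12 ± 0.19. The atypical repressor E2F8 had an L of -1.46 ± 0.0999 at 4 h and -1.07 ± 0.072 at 8 h, and the clock repressor NR1D1 -1.74 ± 0.043 and -1.47 ± 0.14. The 7 genes for proteins with zinc fingers of the classical or BED type had medians of -1.39, -1.60 and -1.56 at 1, 4 and 8 h, a deeper median at 1 h and a shallower one at 4 and 8 h than the whole set.

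Of the other factors, the forkhead factor FOXB1 had an L of -2.50 ± 0.20 at 4 h and the zinc-finger factor ZKSCAN4 one of -2.72 ± 0.31. ZIK1, ZKSCAN2 and ZFP28, all zinc-finger factors, stood at -2.19 ± 0.10, -1.60 ± 0.071 and -1.27 ± 0.054. CSRNP1, a nuclear protein of the early response, had the lowest DMSO level of the 17 factors. It averaged 0.9398 ± 0.514 CPM in SK-3-91 libraries and 6.38 ± 0.6996 CPM in DMSO libraries at 8 h, with L at -1.73 ± 0.28.

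Genes for transcription, RNA and chromatin machinery numbered 13, and all 13 had their lowest L at 4 h. Their median L was -1.28, -2.42 and -1.74 at the 3 times. The count of 13 depends on the centring. In plain CPM, NPAT was at 24.5% of the DMSO mean at 4 h and 22.6% at 8 h, and KDM4D at 10.3% and 8.48%. MEPCE, which caps the 7SK RNA that holds the elongation kinase complex P-TEFb in reserve, was the most abundant gene of the set. At 1 h MEPCE had 95.5, 104, 97.3 and 98.8 CPM in the 4 SK-3-91 libraries, against 242, 227, 229 and 252 CPM in the 4 DMSO libraries. At 4 h MEPCE had 32.3, 32.8, 36.9 and 34.2 CPM in the 4 SK-3-91 libraries, against 244, 226, 235 and 236 CPM in the 4 DMSO libraries. At 8 h MEPCE had 40.8, 41.1, 46.2 and 46.01 CPM in the 4 SK-3-91 libraries, against 232, 229.8, 217 and 231 CPM in the 4 DMSO libraries. The SK-3-91 libraries held well under the DMSO level at every time and were a little higher at 8 h than at 4 h. L at 1, 4 and 8 h was -1.25 ± 0.044, -2.43 ± 0.048 and -1.84 ± 0.054.

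METTL18, a histidine methyltransferase of a ribosomal protein, was far less abundant. At 1 h METTL18 had 3.39, 6.01, 4.84 and 4.12 CPM in the 4 SK-3-91 libraries, against 17.3, 16.3, 16.3 and 15.2 CPM in the 4 DMSO libraries. At 4 h METTL18 had 0.462, 1.21, 1.13 and 1.104 CPM in the 4 SK-3-91 libraries, against 15.96, 17.1, 15.8 and 13.7 CPM in the 4 DMSO libraries. At 8 h METTL18 had 1.91, 1.12, 1.02 and 1.53 CPM in the 4 SK-3-91 libraries, against 17.7, 15.8, 16.5 and 14.9 CPM in the 4 DMSO libraries. It was low early and lower still later, with L at -1.71 ± 0.16, -3.11 ± 0.20 and -2.61 ± 0.16, and its lowest SK-3-91 library at 4 h held 0.462 CPM. PUS3, a pseudouridine synthase of transfer RNA, averaged 2.02 ± 0.5204 CPM in SK-3-91 libraries and 31.4 ± 1.88 CPM in DMSO libraries at 4 h, with L at -3.33 ± 0.16, after -1.08 ± 0.074 at 1 h. Only EOMES had a larger drop of L between these times, and at 8 h L was -2.67 ± 0.22.

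The RNA helicase gene DDX20, part of the SMN complex that assembles spliceosomal particles, averaged 12.1 ± 0.959 CPM in SK-3-91 libraries and 86.6 ± 3.204 CPM in DMSO libraries at 4 h, an L of -2.45 ± 0.061. NPAT, the S-phase activator of histone genes, averaged 22.96 ± 1.29 CPM in SK-3-91 libraries and 93.6 ± 4.81 CPM in DMSO libraries, an L of -1.66 ± 0.055. SIRT1, an NAD-dependent deacetylase, had its lowest L at 4 h too, -1.60 ± 0.068, close to -1.51 ± 0.10 at 1 h, and stood at -1.17 ± 0.063 at 8 h. Among chromatin enzymes, the histone deubiquitinase gene USP51 had an L of -2.79 ± 0.14 at 4 h and the histone demethylase gene KDM4D -2.04 ± 0.21.

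Several genes act on small RNAs. RPUSD2, a pseudouridine synthase, had an L of -2.68 ± 0.093 at 4 h. BCDIN3D, a methyltransferase that acts on a transfer RNA, stood at -2.42 ± 0.27, RPP38, a subunit of ribonuclease P, at -2.35 ± 0.078, and BRF2, an initiation factor of RNA polymerase III, at -2.07 ± 0.098. The last 3 share 20% or more of their 32-base words with other genes. MED9, a Mediator subunit, had an L of -2.07 ± 0.12.

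In 4 genes the protein descends from a transposase, and all 4 have their coding sequence in 1 or 2 exons. JRK, derived from a pogo-type transposase, averaged 34.5 ± 1.901 CPM in SK-3-91 libraries and 73.9 ± 5.17 CPM in DMSO libraries at 1 h and 10.2 ± 0.799 CPM in SK-3-91 libraries and 74.8 ± 4.67 CPM in DMSO libraries at 4 h. At 8 h JRK averaged 14.04 ± 1.76 CPM in SK-3-91 libraries and 77.4 ± 4.402 CPM in DMSO libraries. Its L was -1.07 ± 0.065, -2.47 ± 0.069 and -1.89 ± 0.10, and the groups lay apart at each time. ZBED8 and FAM200A, which derive from hAT-type elements, had L values of -2.43 ± 0.23 and -2.35 ± 0.11 at 4 h, and HARBI1, from a Harbinger element, -1.72 ± 0.16.

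The cell cycle and genome maintenance group held 5 genes, with medians of -1.15, -2.58 and -2.09 at 1, 4 and 8 h. FAM111B encodes a protease whose message peaks in S phase. At 1 h FAM111B had 32.6, 36.3, 38.1 and 36.6 CPM in the 4 SK-3-91 libraries, against 111, 101, 102 and 104 CPM in the 4 DMSO libraries. At 4 h FAM111B had 5.82, 6.21, 5.45 and 7.08 CPM in the 4 SK-3-91 libraries, against 71.9, 76.3, 73.3 and 65.4 CPM in the 4 DMSO libraries. At 8 h FAM111B had 5.39, 5.02, 5.54 and 3.89 CPM in the 4 SK-3-91 libraries, against 85.2, 83.8, 88.8 and 82.4 CPM in the 4 DMSO libraries. The SK-3-91 libraries were far lower at 4 and 8 h than at 1 h, and the DMSO libraries stayed many times higher. L was -1.52 ± 0.056, -3.10 ± 0.088 and -3.44 ± 0.11, the deepest of the group.

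CCNE2 encodes cyclin E2, which drives entry into S phase with CDK2. At 1 h CCNE2 had 44.3, 44.1, 47.5 and 43.2 CPM in the 4 SK-3-91 libraries, against 108, 102, 96.2 and 98.3 CPM in the 4 DMSO libraries. At 4 h CCNE2 had 19.96, 19.1, 18.1 and 18.7 CPM in the 4 SK-3-91 libraries, against 71.6, 73.8, 78.8 and 63.3 CPM in the 4 DMSO libraries. At 8 h CCNE2 had 13.4, 15.5, 14.1 and 12.4 CPM in the 4 SK-3-91 libraries, against 72.8, 81.02, 76.1 and 70.6 CPM in the 4 DMSO libraries. Its SK-3-91 level was lower at each later time, and the groups lay apart. L was -1.15 ± 0.046, -1.55 ± 0.072 and -1.87 ± 0.078; 47.6% of the exon bases of CCNE2 lie opposite to exons of the other strand, so its counts are uncertain. DCLRE1B, the telomere nuclease Apollo, had L values of -1.0002 ± 0.062, -2.63 ± 0.063 and -2.09 ± 0.073. MIS12, a kinetochore subunit, stood at -2.58 ± 0.080 at 4 h and the kinase gene DYRK1B, linked to quiescence, at -2.04 ± 0.15 at 8 h.

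Signalling and immune genes numbered 11, with medians of -1.26, -2.15 and -1.92. FADD is the adaptor that links death receptors to caspases. At 1 h FADD had 18.6, 18.2, 19.3 and 19.6 CPM in the 4 SK-3-91 libraries, against 48.2, 45.4, 44.6 and 49.6 CPM in the 4 DMSO libraries. At 4 h FADD had 3.696, 3.71, 3.48 and 3.68 CPM in the 4 SK-3-91 libraries, against 48.3, 47.3, 49.9 and 51.8 CPM in the 4 DMSO libraries. At 8 h FADD had 4.83, 4.69, 7.58 and 5.31 CPM in the 4 SK-3-91 libraries, against 45.2, 48.1, 49.2 and 48.97 CPM in the 4 DMSO libraries. The SK-3-91 libraries at 4 h lay within 3.48 to 3.71 CPM, and all were far below the DMSO libraries. L was -1.28 ± 0.042, -3.25 ± 0.034 and -2.46 ± 0.15, but 53.0% of the exon bases of FADD have an exon on the other strand, and its counts are uncertain.

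BMP4, a ligand of the transforming growth factor family, averaged 0.812 ± 0.231 CPM in SK-3-91 libraries and 9.74 ± 0.841 CPM in DMSO libraries at 4 h and 0.698 ± 0.203 CPM in SK-3-91 libraries and 12.2 ± 0.934 CPM in DMSO libraries at 8 h. Its L at 1, 4 and 8 h was -1.64 ± 0.13, -2.62 ± 0.14 and -2.88 ± 0.14. Among receptors, CCRL2, an atypical chemokine-binding receptor, had an L of -1.74 ± 0.13 at 1 h, one of the lowest at that time, and of -2.59 ± 0.15 at 4 h. Among adaptors, LAX1, a membrane adaptor that restrains antigen receptor signals, stood at -2.80 ± 0.11 at 4 h, CRK at -2.15 ± 0.098 and the scaffold NEDD9 at -1.21 ± 0.11. MAP3K14, the kinase NIK of the noncanonical NF-kB pathway, had an L of -1.69 ± 0.080. The Rac regulator ARHGAP25 deepened from -1.02 ± 0.061 at 1 h to -2.16 ± 0.15 at 8 h. IFIT5, an interferon-induced RNA-binding protein, had an L of -2.30 ± 0.077, the pseudokinase PRAG1 -1.80 ± 0.097 and the lymphocyte GTPase GIMAP7 -1.30 ± 0.093, all at 4 h. GIMAP7 was abundant, at 39.9 ± 2.88 CPM in SK-3-91 libraries and 125 ± 13.2 CPM in DMSO libraries at 4 h.

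Metabolic, organellar, trafficking and protein-handling genes numbered 15. Their medians were -1.27, -2.30 and -2.11, and 12 of the 15 have the coding sequence in 1 or 2 exons. TRIM32 encodes a ubiquitin ligase of muscle and nerve. At 1 h TRIM32 had 12.9, 14.1, 12.99 and 11.7 CPM in the 4 SK-3-91 libraries, against 32.8, 32.8, 31.7 and 33.4 CPM in the 4 DMSO libraries. At 4 h TRIM32 had 2.22, 2.87, 1.503 and 2.39 CPM in the 4 SK-3-91 libraries, against 39.4, 34.7, 37.5 and 32.8 CPM in the 4 DMSO libraries. At 8 h TRIM32 had 3.93, 3.46, 2.04 and 1.89 CPM in the 4 SK-3-91 libraries, against 37.7, 35.6, 35.2 and 35.98 CPM in the 4 DMSO libraries. The SK-3-91 libraries of 4 and 8 h lay well under those of 1 h, while the DMSO libraries kept a steady level. L was -1.29 ± 0.056, -3.39 ± 0.17 and -2.93 ± 0.23.

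HILPDA, a lipid droplet protein induced by hypoxia, averaged 23.1 ± 2.55 CPM in SK-3-91 libraries and 53.4 ± 2.49 CPM in DMSO libraries at 1 h and 5.29 ± 0.397 CPM in SK-3-91 libraries and 52.2 ± 4.37 CPM in DMSO libraries at 4 h. At 8 h it averaged 6.19 ± 0.818 CPM in SK-3-91 libraries and 65.6 ± 3.55 CPM in DMSO libraries. L was -1.18 ± 0.084, -2.84 ± 0.078 and -2.78 ± 0.093, and 23.4% of its 32-base words are shared with overlapping transcripts, so its counts are uncertain.

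The chaperonin-like genes BBS10 and BBS12, which serve the cilium, had L values of -2.28 ± 0.11 and -2.65 ± 0.14 at 4 h. DNAJB9, a cochaperone of the endoplasmic reticulum, stood at -2.72 ± 0.26, the cullin adaptor gene KLHL26 at -2.49 ± 0.19 and TMEM186, a mitochondrial membrane protein, at -2.71 ± 0.26. TMEM115, a Golgi protein, had an L of -1.71 ± 0.081 at 4 h. The small GTPase genes ARL11 and RAB3A had values of -2.43 ± 0.19 and -1.86 ± 0.14, and PLEKHF1, an endosomal protein, of -2.18 ± 0.21. Among enzymes and their regulators, NANP, a phosphatase of sialic acid synthesis, stood at -2.30 ± 0.041, PPP1R3B, which brings protein phosphatase 1 to glycogen, at -1.73 ± 0.088, and LIPT2, a lipoyl transferase, at -1.64 ± 0.092.

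For 12 genes no role is given here. WDCP averaged 5.66 ± 1.09 CPM in SK-3-91 libraries and 79.1 ± 3.801 CPM in DMSO libraries at 4 h, an L of -3.35 ± 0.14, and CCDC71 averaged 3.89 ± 0.435 CPM in SK-3-91 libraries and 44.6 ± 3.28 CPM in DMSO libraries, an L of -3.02 ± 0.088. LYSMD3, whose protein has a peptidoglycan-binding type of domain, stood at -2.97 ± 0.15 at 4 h and -2.93 ± 0.11 at 8 h. The other 9, C1orf74, TEX19, BCDIN3D-AS1, IQCC, RUNDC1, LENG1, LYSMD1, MSANTD4 and C3orf38, had L values at 4 h between -2.70 and -1.60. TEX19 was the rarest in SK-3-91 libraries, at 0.141 ± 0.107 CPM in SK-3-91 libraries and 3.59 ± 0.492 CPM in DMSO libraries at 8 h, and 43.8% of its exon bases lie opposite to exons of the other strand. BCDIN3D-AS1, the one gene of the set without a coding sequence, is the antisense partner of BCDIN3D. It had an L of -2.32 ± 0.24 at 4 h beside -2.42 ± 0.27 for BCDIN3D, and without the strand setting reads of this pair cannot be told apart.

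**Figure D2:**
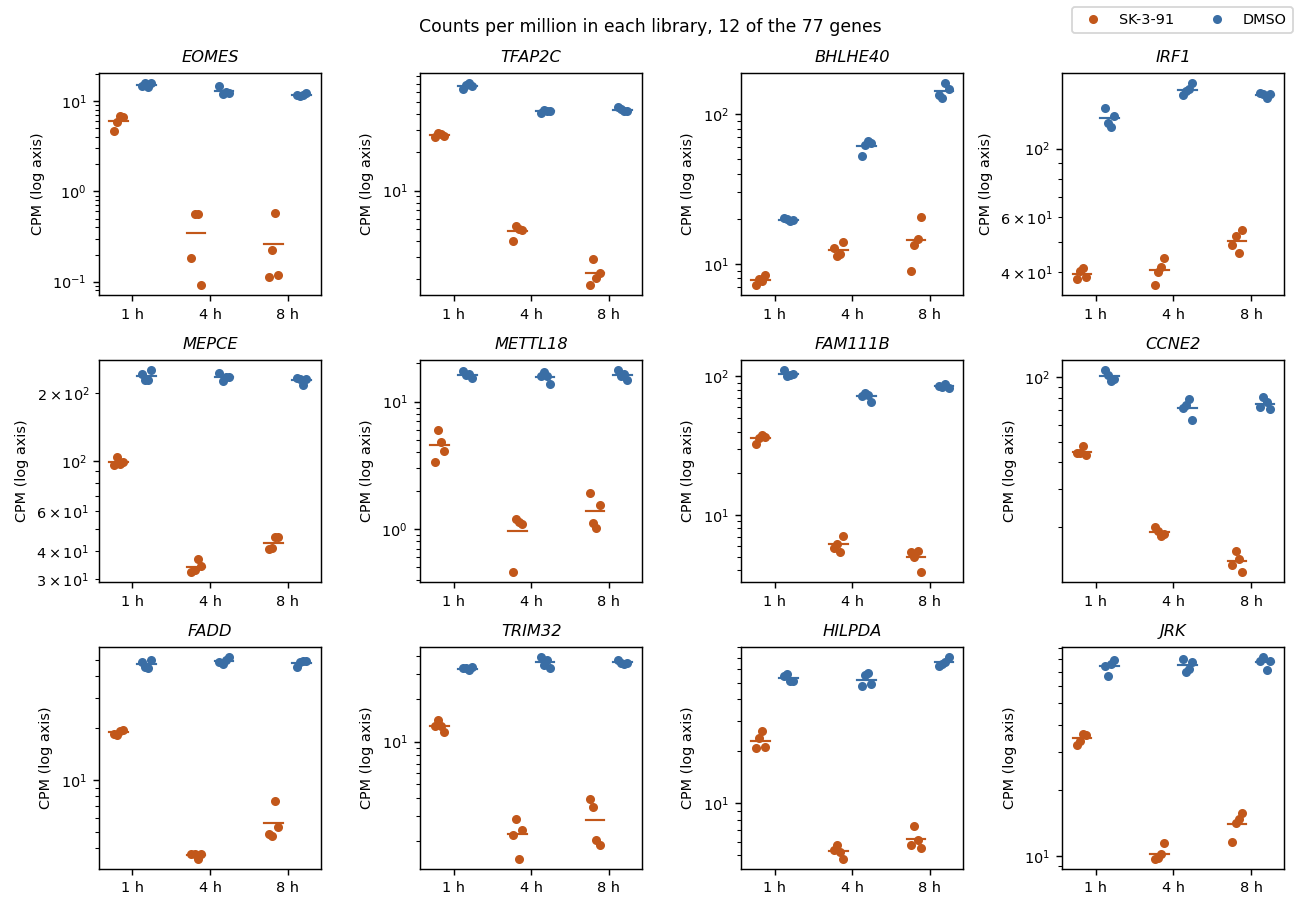
CPM (log axis) in each library for 12 of the 77 genes, SK-3-91 left of DMSO at 1, 4 and 8 h; points are libraries (n = 4 per group) and short lines are means. In every panel and at every time the 4 SK-3-91 points lie below the 4 DMSO points; BHLHE40 is higher in DMSO libraries at each later time, and IRF1 shows nearly level SK-3-91 points at 1 and 4 h.

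The time of the lowest L split the set unevenly. It was 4 h for 57 genes, 8 h for 19 and 1 h for IRF1 alone. These times were not counted over all genes and come from values that the selection used, so nothing about the set is read from them. From 1 to 4 h, L was lower at the later time in 74 genes and higher in 3, with a median change of -0.91. Without subtraction of the median gene, all 77 were lower at 4 h than at 1 h. From 4 to 8 h, L was higher in 58 genes and lower in 19, with a median change of 0.27. The size of that majority depends on the centring: without subtraction of the median gene, 46 were higher and 31 lower at 8 h than at 4 h. The percent of the DMSO level was also nearly equal at both times, 14.8% at 8 h and 14.3% at 4 h in the median. At 8 h, 66 genes were lower in L than at 1 h (76 without centring).

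Among genes with a mean DMSO CPM of at least 5 at each time, L dropped most between 1 and 8 h in EOMES, TFAP2C, FAM111B, LYSMD3, TRIM32 and HILPDA. The change in L was -2.23 in EOMES, -2.21 in TFAP2C, -1.92 in FAM111B, -1.66 in LYSMD3, -1.64 in TRIM32 and -1.60 in HILPDA. At the other end, L was higher at 8 h than at 1 h by, among others, 0.61 in IRF1, 0.37 in PPP1R3B, 0.33 in SIRT1, 0.30 in ZKSCAN2 and 0.24 in TMEM115. In plain CPM, of those named, only IRF1 was nearer to DMSO at 8 h, with 33.8% of the DMSO mean after 31.5% at 1 h. The others were further below it at 8 h. PPP1R3B went from 33.1% to 29.7%, SIRT1 from 34.3% to 30.0%, ZKSCAN2 from 33.9% to 28.8% and TMEM115 from 36.2% to 29.6%. The 19 genes lowest at 8 h had medians of -1.26, -1.72 and -2.04 at 1, 4 and 8 h, and the 57 lowest at 4 h had medians of -1.27, -2.42 and -1.89.

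**Figure D3:**
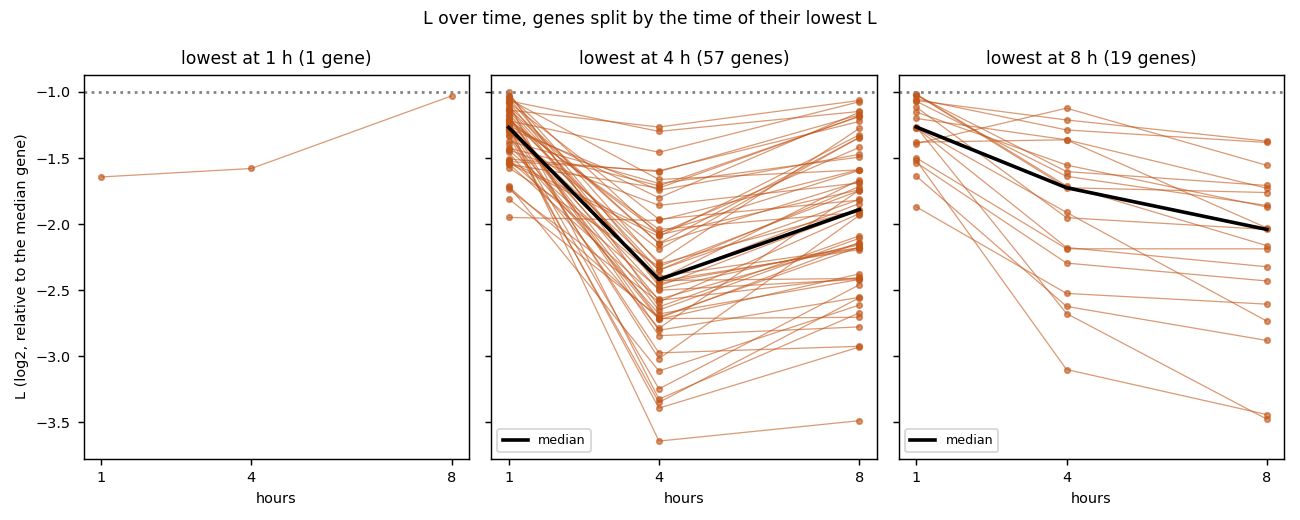
L (log2, relative to the median gene) of each of the 77 genes at 1, 4 and 8 h, in panels by the time of the lowest value; thin lines are genes, the thick line is the median and the dotted line is the selection limit of -1. The panel of 57 genes dips at 4 h to a median of -2.42, and the panel of 19 genes goes down to -2.04 at 8 h.

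The selection did not use gene structure. All 77 genes were matched to GENCODE release 29, and 76 of them code for protein. The longest coding transcript of the median gene had 2.5 coding exons, against 9 over all genes measured and 8 over genes with a DMSO level like that of the set. The coding sequence lay in 1 exon in 20 of 76 genes (26.3%), against 3.33% of all genes. It lay in 1 or 2 exons in 38 of 76 (50.0%, 95% exact binomial interval 38.3% to 61.7%, which covers counting error only), against 7.77% of all genes and 9.30% of genes of like DMSO level. Among these were TRIM32, METTL18, JRK, HILPDA, USP51, FOXB1 and GIMAP7 with 1 coding exon, and FADD, FAM111B, DDX20, BMP4 and MYCN with 2. No set test was run on these shares.

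Introns were short as well. The median gene of the set held 5227 intron bases, against 24881 over all genes, and spanned 9982 bases, against 34060. The mature transcript was less different, with a median of 3023 bases against 3458, a GC content of 48.6% against 48.0%, and a 3′ untranslated region of 1211 bases against 1363. AU-rich elements, which are known to speed the decay of messages, were about as common as elsewhere: the median density of ATTTA was 1.84 per kilobase of 3′ untranslated region, against 1.73, and TATTTAT occurred in 39.5% of the genes, against 35.7%. A start that diverges from another gene within 1000 bases was annotated for 15.6%, against 17.5%.

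The deposited table bears on this comparison. Of the protein-coding genes in GENCODE with 1 exon in every transcript, 6 of 1041 (0.576%) were in the table, against 9441 of 18881 (50.0%) with more exons. None of the 77 belongs to these 6, so the genes with 1 coding exon have a further, noncoding exon. Genes with 1 exon in every transcript are thus nearly absent from the shares above, with 6 in those over all genes and 0 in those of the set.

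Over all genes measured, L was also lower where coding exons were few. At 4 h its median was -0.85 over 315 genes with 1 coding exon, -0.31 over 419 with 2, -0.08 over 2011 with 3 to 5, 0.00 over 2794 with 6 to 10 and 0.07 over 3907 with 11 or more. The 77 genes supplied 20, 18, 22, 11 and 5 genes to these classes. Within the set, the median L at 4 h was -2.53 in the 20 genes with 1 coding exon, -2.44 in the 38 with 1 or 2, -1.96 in the 38 with 3 or more and -1.60 in the 16 with 6 or more. Over all genes the medians at 1 h were -0.33, -0.15, -0.03, 0.02 and 0.02 in the 5 classes from few to many coding exons. Within the set, which holds no gene above the limit of -1, they were -1.27 for 1 or 2 coding exons and -1.26 for 3 or more. These are descriptions of values that the selection used.

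The 63 genes that met the same limits but were left out by symbol had other structures. Their median number of coding exons was 4, and 14 of 61 (23.0%) had the coding sequence in 1 or 2 exons. Of the 48 coding genes among them with symbols that start with ZNF, 8 (16.7%) did. At 1, 4 and 8 h the median L was -1.27, -2.30 and -1.89 in the 77 genes, against -1.36, -2.07 and -1.73 in these 63. Both sets were chosen by the same values, so this is a description.

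**Figure D4:**
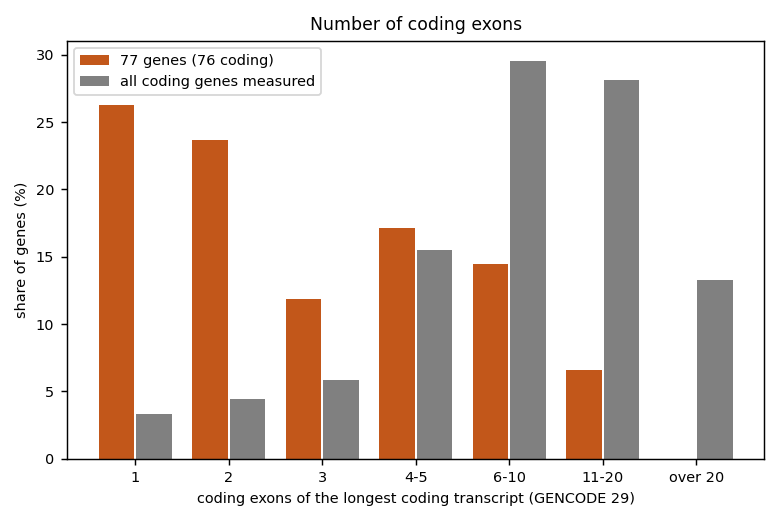
Share of genes (%) by the number of coding exons of the longest coding transcript, for the 76 coding genes of the set (left bars) and for all 9446 coding genes measured (right bars). The set has 26.3% of its genes in the class of 1 coding exon, against 3.33%, and 0 of its genes in the class over 20, against 13.2%.

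For 13 of the 77 genes the counts are uncertain, because 20% or more of their 32-base words occur in other genes or 20% or more of their exon bases face exons of the other strand. They are BCDIN3D-AS1, RPP38, BCDIN3D, C1orf74, TMEM186, HILPDA, IRF1, LIPT2, TEX19, BRF2, LENG1, FADD and CCNE2. Without them the medians of L over 64 genes were -1.25, -2.24 and -1.92, and 46.9% had the coding sequence in 1 or 2 exons. TMEM115, ZKSCAN4, IQCC, BCL6, MIS12 and MAP3K14 have shares between 10% and 20% so their counts are less certain too.

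In the promoters, 18 motifs were searched on both strands, and the shares over 58 genes of the set were set beside those over 8103 genes measured. CCAAT was found in 28 promoters (48.3%), against 37.3%, and TATAAA in EOMES, ARHGAP25, FAM200A, GIMAP7 and RPUSD2 (8.62%), against 4.74%. The Sp-type box GGGCGG was found in 63.8%, against 71.7%, and the E-box CACGTG in BHLHE40, DCLRE1B, DNAJB9, DYRK1B and SIRT1 (8.62%), against 10.996%. CCGGAAGT, read by ETS factors, was in 8.62%, against 9.92%, and CGCATGCGC in 6.90%, against 4.16%. The cyclic AMP element TGACGTCA was in 0 of 58, against 3.50%, and TGACGCAA, TTCCNGGAA, GGGACTTTC and CCATATTAG were in 0 as well, against 0.987%, 1.12%, 0.321% and 0.0987%. TTTCCCGC was in 5.17%, against 2.84%, AAGATGGC in 3.45%, against 6.08%, and TTTGGCGC, ACTACAATT, GCGTGGGCG and TGAGTCA, whose reverse complement TGACTCA gives the same matches, in 1 promoter each (1.72%), against 1.16%, 0.716%, 1.27% and 2.48%. The promoters of the set had a median GC content of 61.8% and 22 CG dinucleotides, against 65.7% and 27.

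Gene lists and families were used to see what else the set touches. Of the 25 measured immediate-early and early response genes, BHLHE40 and CSRNP1 belong to the set; 7 of the 25 had an L at or under -1 at 1 h and 8 at 8 h, and 0 and 7 had an L at or above 1. Of 110 other sequence-specific factors, 7 belong to it, among them GFI1, IRF1, BCL6, E2F8, EOMES and NR1D1, and 10 were at or under -1 at 1 h, 26 at 4 h and 28 at 8 h, with 0, 7 and 16 at or above 1. The lists of 22 signal feedback genes and of 35 helix-loop-helix and leucine-zipper factors had 4 and 1 genes at or under -1 at 1 h and 0 in the set. Neither list holds MYCN or BHLHE40, nor the symbols that the selection left out, so these counts of 0 do not cover all genes of their kind. The set holds only 77 of 9822 genes, so a count of 0 in lists this short is not read as a result. Of all genes, 3.01%, 16.4% and 20.3% were at or under -1 at 1, 4 and 8 h. At or above 1 were 0.0509%, 9.78% and 19.1%.

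Of 66 genes for transfer and ribosomal RNA, 19 were at or under -1 at 4 h and 1 at or above 1, with a median of -0.66, and RPP38, RPUSD2 and PUS3 were in the set. Of 99 genes of the transcription machinery, 28 and 9 were past these limits at 4 h (median -0.33), and MED9 and BRF2 were in the set. Of 48 cell cycle genes, 17 and 3 were past them at 4 h (median -0.61), with CCNE2 in the set, and of 29 apoptosis genes 6 and 0 (median -0.55), with FADD in it. These counts are to be read beside the shares of all genes given above, 16.4% and 9.78% at 4 h. The genes in the set are to be read beside its 77 of 9822 genes.

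The change over time in DMSO alone was tested. It is not independent of the selection, because the same DMSO libraries served as denominators of L. For 64 of the 77 genes the 1 h limit was the closest one, and a high DMSO level at 1 h lowers L there. Entry could thus favour genes with high DMSO values at 1 h, so the shares of the set called are given as description. The question was whether the 77 genes were steady in solvent. Between 4 and 1 h, edgeR's quasi-likelihood test with Benjamini-Hochberg adjustment over 9822 genes called 17 of the 77 higher at 4 h (22.1%, against 16.0% of all genes) and 22 lower (28.6%, against 19.1%). With limma-trend this comparison gave 9 higher and 14 lower in the set, beside 1206 and 1523 over all genes, and the larger share called higher was not kept. Between 8 and 4 h the edgeR test called 12 higher at 8 h (15.6%, against 15.9%) and 9 lower (11.7%, against 14.8%). With no scaling factors the second comparison gave 11 higher and 14 lower in the set, and 1266 higher and 1829 lower over all genes, against 1563 and 1456 with TMM factors. The count of 9 rested on single libraries: it was 2 without the third DMSO library of 4 h and 5 without the second of 8 h. The median log2 fold change of the 77 was -0.04 between 4 and 1 h and -0.02 between 8 and 4 h, against -0.01 and 0.00 over all genes. In all, 31 genes were called in neither comparison, 25 at 4 against 1 h only, 7 at 8 against 4 h only and 14 in both. This split was not counted over all genes, so nothing about the set is read from it.

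BHLHE40 changed most. BHLHE40 had 52.8, 61.99, 65.6 and 64.04 CPM in the 4 DMSO libraries of 4 h, against 20.3, 20.1, 19.2 and 19.5 CPM in those of 1 h. The log2 fold change was 1.61 ± 0.093 (adjusted p = 5.2e-17, higher in 4 of 4 libraries). Here and below, libraries of the later time are counted that lay beyond the mean of the earlier time, which does not exclude overlap. BHLHE40 had 135, 127, 161 and 147 CPM in the 4 DMSO libraries of 8 h, against 52.8, 61.99, 65.6 and 64.04 CPM in those of 4 h. That was a log2 fold change of 1.24 ± 0.075 (adjusted p = 1.4e-16, higher in 4 of 4 libraries). It was also the one gene of the 77 still called when a fold of 1.5 was set as the minimum, in either comparison.

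Other genes were higher at 4 h than at 1 h in DMSO by less. PLEKHF1 changed by 0.85 ± 0.15 (adjusted p = 1.2e-05, higher in 4 of 4 libraries) and again by 0.70 ± 0.12 (adjusted p = 2.1e-05, higher in 4 of 4 libraries) between 8 and 4 h. ZBED8 changed by 0.96 ± 0.19 (adjusted p = 0.0001, higher in 4 of 4 libraries), RAB3A by 0.66 ± 0.11 (adjusted p = 1.4e-05, higher in 4 of 4 libraries) and BMP4 by 0.60 ± 0.11 (adjusted p = 2.8e-05, higher in 4 of 4 libraries) between 4 and 1 h. The call of ZBED8 was lost with limma-trend. CSRNP1 did not pass between 4 and 1 h and was higher at 8 h than at 4 h, by 0.87 ± 0.15 (adjusted p = 3.7e-05, higher in 4 of 4 libraries).

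TFAP2C and FAM111B were lower at 4 h than at 1 h. TFAP2C had 41.1, 42.9, 42.4 and 42.7 CPM in the 4 DMSO libraries of 4 h, against 63.6, 67.9, 70.3 and 67.1 CPM in those of 1 h. The log2 fold change was -0.68 ± 0.049 (adjusted p = 2.7e-14, lower in 4 of 4 libraries). FAM111B changed by -0.56 ± 0.049 (adjusted p = 9.7e-12, lower in 4 of 4 libraries), ZIK1 by -0.76 ± 0.079 (adjusted p = 4.9e-10, lower in 4 of 4 libraries), ZKSCAN2 by -0.51 ± 0.063 (adjusted p = 3.1e-08, lower in 4 of 4 libraries) and MYCN by -0.60 ± 0.10 (adjusted p = 1.5e-05, lower in 4 of 4 libraries). MYCN was lower again at 8 h than at 4 h, by -0.32 ± 0.12 (adjusted p = 0.035, lower in 4 of 4 libraries), and SIRT1 by -0.28 ± 0.060 (adjusted p = 0.00041, lower in 4 of 4 libraries). The MYCN values of these times overlapped, with 9.10 CPM in the fourth DMSO library of 8 h and 8.88 CPM in the second of 4 h. The call of MYCN between 8 and 4 h was lost with limma-trend, with a minimum fold of 1.5, without the third DMSO library of 4 h and without the first, the second or the third of 8 h. TEX19, whose counts are uncertain, changed by -0.85 ± 0.12 (adjusted p = 2.8e-07, lower in 4 of 4 libraries) and -0.45 ± 0.14 (adjusted p = 0.013, lower in 4 of 4 libraries), and its second call was lost with limma-trend, with that minimum fold and without the second or the third DMSO library of 4 h.

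**Figure D5:**
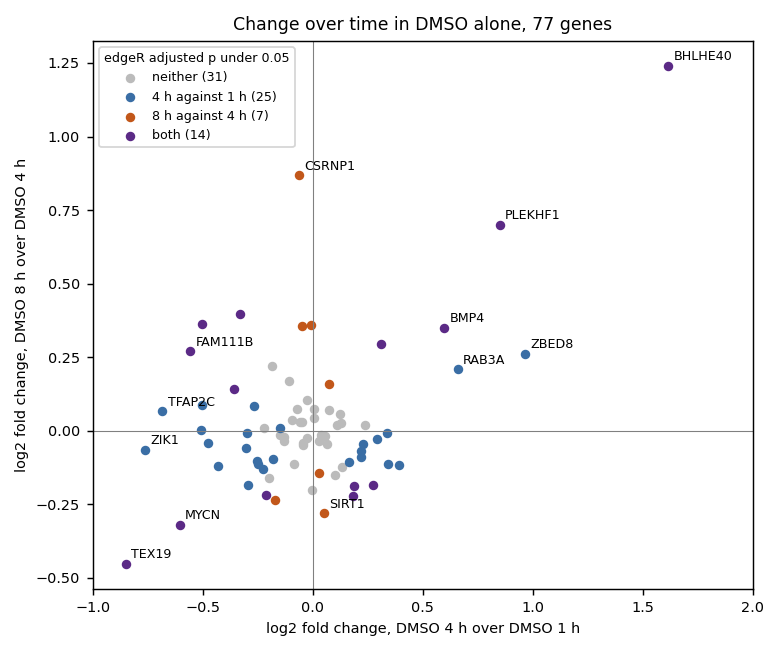
Log2 fold changes in DMSO libraries alone for the 77 genes, 4 h over 1 h on the horizontal axis and 8 h over 4 h on the vertical axis (edgeR, n = 4 per group); colours mark calls at an adjusted p under 0.05. BHLHE40 stands apart at 1.61 and 1.24. The 31 genes called in neither comparison have no such count over all genes beside them.

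For 64 of the 77 genes L was highest at 1 h, so the limit at that time was the closest one for them. Just inside it were DCLRE1B, with L at -1.0002 at 1 h, ARHGAP25 at -1.02, HARBI1 at -1.02 and C3orf38 at -1.02. Just outside were YAE1 at -0.9991, ITPKC at -0.99, NFKBIE at -0.99 and CYB561D1 at -0.99, all of which passed at 4 and 8 h. YAE1 had an L of -2.33 at 4 h and NFKBIE of -2.71, as low as many genes of the set. The standard error of L at 1 h was 0.062 for DCLRE1B, 0.062 for ARHGAP25, 0.17 for HARBI1 and 0.064 for C3orf38, more than their distance to the limit.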

How the data were processed

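Total RNA of MOLT4 cells was sequenced in 24 libraries (BGISEQ-500, single-end, 50 bases), per the labels' protocols. The authors' deposited table holds whole-number counts per gene, not normalized. A second deposited table holds log2 values, a function of those counts, and served for gene symbols only. The submitters' processing notes name edgeR and build hg19. Which aligner, counter, strand setting and annotation were used is not given in the sources used here. Their deposited gene width, in bases per the file headers, entered no test.

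CPM is the count divided by the library's sum. The genes, roles and lists were chosen with earlier results of these data known, so L carries no test. Standard errors of L come from the spread of CPM in each group. Named genes were those with the lowest L at each time, the most abundant, up to 4 per list, those with the largest change over time and those next to the limit. Others are given by role, after their values were seen, and 2 of the 77 are not reported by name here.

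DMSO libraries were compared over time by quasi-likelihood F tests (edgeR 4.0.16, R 4.3.3) in 1 fit over all 24 libraries, with factors by TMM. The filter filterByExpr removed 0 genes, and p-values were adjusted over 9822 genes after Benjamini and Hochberg, with a threshold of 0.05. The common biological coefficient of variation was 0.0422. Tested on simulated data for the comparison of DMSO 4 h with 1 h, run on 9822 genes, it recovered 100% of 100 genes changed 1.5-fold and 100% of 100 genes changed 2-fold. All simulated libraries were drawn from the DMSO 1 h means with the same dispersion for every gene. The recovery thus does not carry over to genes with a wider spread, and it does not bear on false calls. Alternatives were other pseudocounts, no centring, TMM-scaled sizes, medians over replicates, other factors, filters and minimum fold, limma-trend (limma 3.58.1), DESeq2 1.42.0, a replicate block and each library left out.

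Gene structure came from GENCODE release 29, matched by symbol for 9636 genes and by Entrez ID for 143, with 43 unmatched. The build of the files differs, so no coordinates of counted genes are given. Promoters and their coordinates came from RefSeq (GRCh38.p14). The interval on a share of genes is exact (Clopper-Pearson) at 95% and covers counting error only.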

Additional observations from a re-analysis of the deposited data

Results flagged for a closer look

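Of 150 sets of 4 values, for 24 genes in the 6 groups and for the library totals, 8 held a value that lay so far from the others that Dixon's test passed its 95% limit, and chance gives about 1 in 20. In SK-3-91 libraries these values were 0.462 CPM of METTL18 in replicate 1 at 4 h (the next value was 1.10), 3.48 CPM of FADD in replicate 3 at 4 h (next 3.68), 19.3 CPM of GFI1 in replicate 2 at 8 h (next 22.8) and 15.2 CPM of DCLRE1B in replicate 3 at 8 h (next 12.6). In DMSO libraries they were 22.3 CPM of OTX1 in replicate 4 at 1 h (next 19.7), 14.7 CPM of EOMES in replicate 1 at 4 h (next 12.5), 79.97 CPM of GFI1 in replicate 3 at 8 h (next 85.2) and 217 CPM of MEPCE in replicate 3 at 8 h (next 229.8). DCLRE1B, OTX1 and EOMES were high, and METTL18, FADD, GFI1 and MEPCE low. None of the 8 brought its SK-3-91 and DMSO groups into overlap.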

How the results depend on the processing

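The number of genes that met the limits was 77. It was 70 with 1 CPM added, 91 with 0.1 CPM, 106 without centring, 78 with TMM-scaled sizes, 81 with those and no centring, 81 with medians over replicates, 70 with a mean DMSO CPM of at least 5, and 74 to 84 without any 1 library; 67 of the 77 stayed in every time and ARHGAP25, BCL6, C3orf38, DCLRE1B, HARBI1, IRF1, LYSMD1, NANP, NEDD9 and ZFP28 did not. The median L at 4 h was -2.04 with 1 CPM added and -2.64 without centring, and at 8 h it was -2.12 with 0.1 CPM and -2.42 without centring. Without any 1 library the medians lay within -1.28 to -1.25, -2.33 to -2.24 and -1.93 to -1.87 at 1, 4 and 8 h. Of the L values of named genes under these settings, 4819 stayed within 1 standard deviation, 191 moved and 0 reversed. Most of these values come from the runs without 1 library, where 0 moved. Removal of 1 library of 4 shifts a mean by less than that limit, so those runs could hardly move a value. With no centring 104 moved and 58 stayed, with 0.1 CPM 32 and 130, and with 1 CPM 34 and 128. With TMM-scaled sizes 1 moved, and 20 did with those and no centring. The share of all genes with the coding sequence in 1 or 2 exons was 9.30% at the DMSO level of the set.

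Between DMSO 4 and 1 h, the genes of the set called higher were 11 with a mean count of at least 100, 1 with a minimum fold of 1.5 and 9 with limma-trend, and those called lower 0 with that minimum fold and 14 with limma-trend. Over all genes that minimum fold left 19 higher and 21 lower, and limma-trend called 1206 and 1523. The mean count of at least 100 left 57 genes of the set and 8705 of all genes, of which 1429 were called higher. Between DMSO 8 and 4 h, the genes of the set called higher were 1 with the minimum fold and 6 with limma-trend. Those called lower were 14 with no scaling factors, 0 with the minimum fold and 2 with limma-trend. Over all genes the minimum fold left 48 higher and 2 lower, and limma-trend called 1162 and 1069. Without any 1 library the counts between 4 and 1 h were 13 to 18 higher and 18 to 23 lower in the set and 1393 to 1635 and 1615 to 1968 over all genes. Between 8 and 4 h they were 10 to 13 and 2 to 10 in the set and 1214 to 1686 and 1092 to 1581 over all genes, the 2 without the third DMSO library of 4 h. No single log2 fold change or L of a named gene changed sign under the settings run, but the balance of calls turned with the scaling. Between 4 and 1 h, 1573 genes were called higher and 1877 lower, against 1753 and 1677 with RLE factors, 1759 and 1656 with DESeq2 and 1775 and 1650 with no factors, and between 8 and 4 h no factors gave 1266 and 1829, against 1563 and 1456. The cause of these shifts was not tested beyond the smaller number of genes or samples that a filter or an omitted library leaves. Over 60 pairs of libraries with the same replicate number, r between their deviations ran from -0.16 to 0.28, with 8 over 0.1. Of these, 5 are among the 12 pairs of DMSO libraries, which ran from -0.14 to 0.28. Libraries with different numbers were not compared, so a pairing of the libraries is not excluded. A replicate block gave 17 higher and 23 lower in the set between 4 and 1 h and 13 and 8 between 8 and 4 h. The 22 genes with under 10 reads in a library have the least certain L. The setting without the 13 genes of uncertain counting was added after the data were seen.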
